A study of Mus musculus with 6 samples.

Results

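The genes described here are 32 genes of glycolysis and of the response to low oxygen, taken by symbol from the gene lists of the deposited count matrices. They are 32 of the 32285 genes listed in one cell fraction and of the 54752 genes listed in the other. They were divided into 18 glycolysis genes, which encode glucose and lactate transporters and the enzymes from hexokinase to lactate dehydrogenase, and 14 hypoxia genes, which encode the oxygen-regulated transcription factors Hif1a and Epas1, their oxygen sensors and a set of their known targets. All 32 were found in both fractions. Aldoa, which has 2 rows in the list of each fraction, was summed over its rows, and the second row held at most 1 UMI in the B cells examined for it.

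The mice were C57Bl/6, and their axillary and inguinal lymph nodes were taken. Tumour-free animals gave the naive arm, and the 2 other arms were nodes draining melanomas grown from the cell line YUMM1.7 or from YUMMER1.7. YUMM1.7 is a mouse melanoma line with engineered driver mutations, and YUMMER1.7 is a derivative of it that carries extra mutations from ultraviolet light. Nodes of several mice were pooled for each library, and each arm has 1 library in each of 2 fractions. The enriched fraction was collected with beads against CD11b and CD11c, the integrins of myeloid and dendritic cells. The depleted fraction is labelled as de-enriched for CD45, the marker of haematopoietic cells, although its protocol text speaks of positive enrichment, and most of its cells were lymphocytes. With 1 library per arm, no test between arms was possible and no p-value is given. Intervals are exact 95% intervals that cover counting error only, not the spread between mice.

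The enriched libraries kept 9958 naive, 7086 YUMM1.7 and 6482 YUMMER1.7 cells with a median of 6726, 9401 and 10170 unique molecular identifiers (UMIs, counted RNA molecules) per cell. The depleted libraries kept 12381, 8287 and 6554 cells with a median of 4152, 4603 and 4888 UMIs. Pairs of libraries shared between 6 and 49 cell barcodes. Clusters were made without the 32 genes and were named only where fixed marker genes led them, so each class below is a marker-based, X-like class: conventional dendritic cells 1 and 2 (cDC1, cDC2), migratory and plasmacytoid dendritic cells (migratory DC, pDC), monocytes, macrophages, neutrophils, NK cells, T cells, B cells, plasma cells, fibroblastic cells and lymphatic and blood endothelial cells. In the naive depleted library the last 3 had 8, 21 and 10 cells, under the minimum of 30, so stromal classes are compared between the tumour arms only. Levels are counts of a gene scaled to 1000000 UMIs of the class (CPM), and 3 values in a row are given in the order naive, YUMM1.7, YUMMER1.7. Both tumour arms are set against the same naive library, and all classes of a fraction come from the same 3 libraries.

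Glycolysis splits glucose into pyruvate and yields energy without oxygen, and lactate dehydrogenase then turns pyruvate into lactate, which is exported. Activated neutrophils, macrophages, dendritic cells and dividing lymphocytes are known for a high use of this pathway. When oxygen is scarce, the prolyl hydroxylases encoded by Egln1 and Egln3 stop marking HIF-1α and HIF-2α (the products of Hif1a and Epas1) for degradation, and these factors bind the core sequence RCGTG near genes of glucose uptake, glycolysis, mitophagy and collagen modification. Most of the hypoxia genes and several glycolysis genes are such targets, and the factors themselves are controlled mainly at the protein level.

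The binding core makes the promoters of the members worth seeing, although binding was not measured. Of the 32 members, 28 had promoters in the RefSeq table (GRCm38.p6), with 37 promoters between them, and Slc2a3, Bnip3l, Ndrg1 and Epas1 had none. ACGTG was searched on both strands in the 250 bases before each start, and a palindromic CACGTG counted on both. It was present in 19 of the 37 promoters (51.4%) and in 16.6% of all 32851 promoters of the table. The looser search for ACGTG or GCGTG found 81.1% against 38.6%. The members' promoters were also richer in CG dinucleotides, with a mean of 16.7 per 250 bases against 9.86, and in G and C bases, at 62.5% against 53.2%. The part of base composition in the motif share was not tested. The stretches below are shown because their genes carry the class differences described later. Pfkfb3 and Ldha each had a further promoter in the table that is not shown. That of Pfkfb3 held 3 matches, and that of Ldha held 1, of the GCGTG form. Capitals mark ACGTG or GCGTG or their reverse complements, and each stretch is given 5′ to 3′ on the strand of the gene.
Slc2a1, chr4:119108674-119108723, plus strand: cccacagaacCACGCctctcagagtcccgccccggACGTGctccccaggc
Pfkfb3, chr2:11553975-11553999, minus strand: ccgcgccgtgACGTGccaagctgtg
Gapdh, chr6:125165803-125165837, minus strand: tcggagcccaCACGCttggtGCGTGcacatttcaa
Pgk1, chrX:106186940-106186983, plus strand: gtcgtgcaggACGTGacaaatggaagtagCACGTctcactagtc
Ldha, chr7:46845649-46845784, plus strand: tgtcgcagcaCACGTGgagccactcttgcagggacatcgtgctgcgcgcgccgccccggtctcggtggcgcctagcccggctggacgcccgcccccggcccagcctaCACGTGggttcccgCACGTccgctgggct
Slc16a3, chr11:120949030-120949066, plus strand: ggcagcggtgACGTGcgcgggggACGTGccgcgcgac
P4ha2, chr11:54100807-54100869, plus strand: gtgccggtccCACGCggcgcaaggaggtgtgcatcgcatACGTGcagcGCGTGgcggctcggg
Egln3, chr12:54204089-54204113, minus strand: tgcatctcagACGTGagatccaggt
The nearest match lay 14 bases before the start in Slc16a3, 34 in the Ldha promoter shown and 36 in Slc2a1, and the single match of Egln3 lay 229 bases before it. Gapdh held the GCGTG form only, and the listed promoters of Tpi1, Gpi1 and Mif held neither form.

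**Figure D1:**
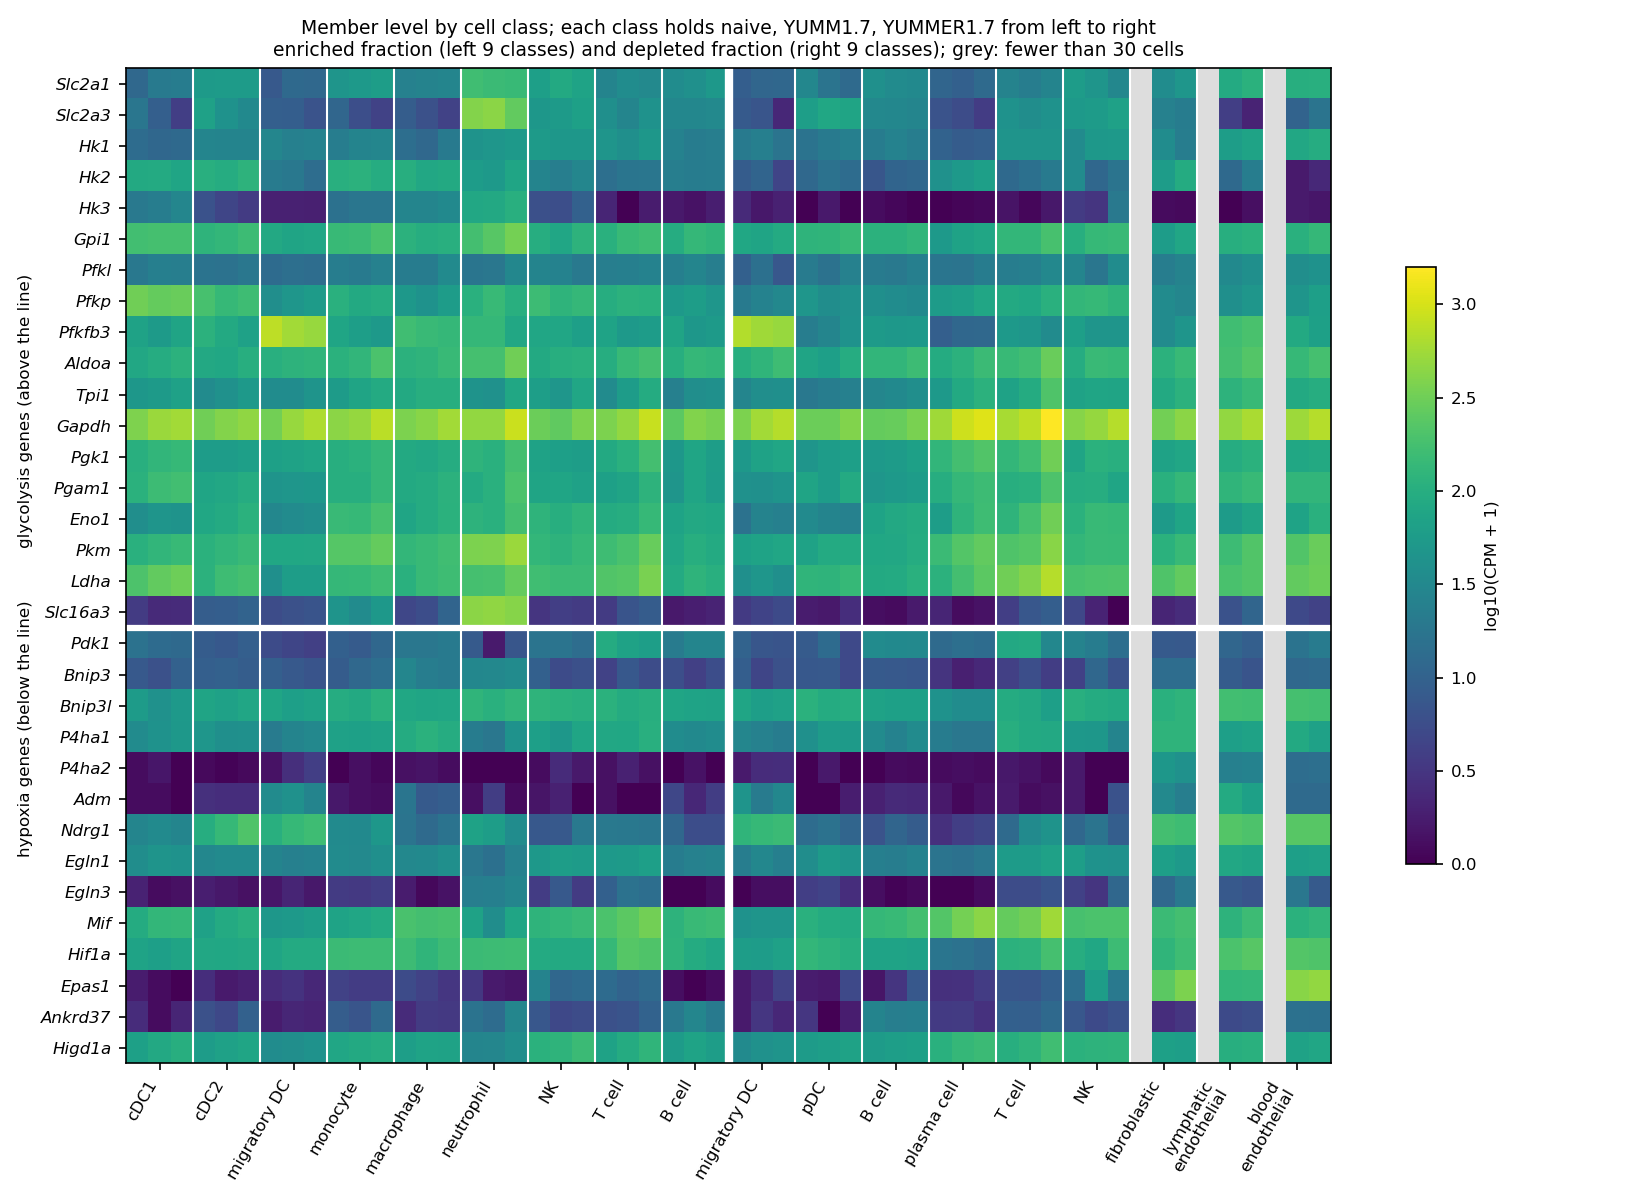
Level of each of the 32 genes as log10(CPM + 1), by gene (rows) and by cell class and arm (columns, naive, YUMM1.7 and YUMMER1.7 from left to right in each class). The bright block of Slc2a1, Slc2a3 and Slc16a3 lies in neutrophils, that of Pfkfb3 in migratory DC of both fractions, and those of P4ha2 and Epas1 in the stromal classes at the right.

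Neutrophils stood apart in the transport genes. Slc2a1 and Slc2a3 encode the glucose transporters GLUT1 and GLUT3, and Slc16a3 encodes MCT4, the lactate exporter of strongly glycolytic cells. Slc16a3 was measured at 442, 472 and 411 CPM in neutrophils and at 44.8, 34.0 and 50.3 CPM in monocytes. It lay between 0.641 and 9.68 CPM in the other 7 enriched classes. After each cell was thinned to 2000 UMIs, 51.1%, 55.9% and 53.7% of neutrophils held a Slc16a3 UMI, against 0.152%, 0.276% and 0.338% of B cells, a class that should lack it. Slc2a3 was at 400, 441 and 271 CPM in neutrophils, at 67.3, 42.4 and 32 CPM in cDC2 and at 48.9, 54.7 and 64.8 CPM in NK cells. The class after neutrophils was thus cDC2 in the naive library and NK cells in both tumour libraries. Slc2a1 was at 166, 152 and 141 CPM in neutrophils, with NK cells next at 63.3, 85.7 and 69.9 CPM. The intervals of neutrophils and NK cells did not overlap for Slc2a1 in any arm.

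The 2 glucose transporter genes differed between arms in opposite directions in cDC1, although the direction of Slc2a1 did not hold in every setting. In cDC1, Slc2a3 was at 17.1, 8.37 and 2.98 CPM, a log2 ratio of -2.52 for YUMMER1.7 over naive (interval -3.79 to -1.46) and of -1.03 for YUMM1.7 over naive. In cDC2 the ratio over naive was -1.07 (-1.26 to -0.89) in YUMMER1.7 and -0.67 in YUMM1.7. Monocytes had 10.5, 4.88 and 3.30 CPM, with a ratio of -1.66 (-2.17 to -1.16). Slc2a3 was thus lowest in the YUMMER1.7 library in these 3 classes, and its interval for YUMMER1.7 over naive lay below 0 in 6 of 9 enriched classes and above 0 in 1. Slc2a1 was higher in YUMMER1.7 in 8 of 9 enriched classes, with the interval above 0 in 4. In cDC1 it was at 11.1, 20.1 and 20.9 CPM, a log2 ratio of 0.91 (0.31 to 1.52) in YUMMER1.7, but the ratio was -0.67 when cells were thinned to equal depth and -0.18 with separate clustering of each library. In migratory DC Slc2a1 was at 6.77, 11.3 and 11.2 CPM, so both tumour libraries lay above the naive one.

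Macrophages held little Slc16a3, at 3.76, 4.67 and 9.68 CPM, and the YUMMER1.7 value lay above the other 2 with a log2 ratio over naive of 1.36 (0.63 to 2.16). The 10 markers of mature neutrophils summed to 293, 197 and 325 CPM in the same macrophages, and their part in this value was not tested. In the depleted fraction no class reached 11 CPM of Slc16a3, and lymphatic endothelial cells had 5.39 CPM in YUMM1.7 and 10 CPM in YUMMER1.7. That ratio turned to -1.09 when cells were thinned.

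The hexokinases, which trap glucose as its phosphate, were divided among cell classes. Hk1, the general form, was at 53.7, 48.9 and 48.8 CPM in NK cells, at 43.5, 46.9 and 51.6 CPM in neutrophils and at 46.0, 38.3 and 48.2 CPM in T cells, the 3 highest enriched classes. Hk2, an inducible form and HIF target, was highest among enriched classes in cDC2 at 104, 95.9 and 116 CPM, monocytes at 102, 112 and 95.8 CPM, macrophages at 99.8, 82.7 and 87.1 CPM and cDC1 at 87.1, 89.3 and 75.6 CPM. The naive intervals of cDC2, monocytes and macrophages overlapped, and that of cDC1 lay below that of cDC2. Migratory DC had far less Hk2, at 20.6, 18.2 and 13.1 CPM, with a YUMMER1.7 ratio over naive of -0.66 (-0.94 to -0.39). Hk3, the form of granulocytes and other myeloid cells, was at 82.0, 83.3 and 104 CPM in neutrophils, 28.0, 27.9 and 32.4 CPM in macrophages and 18.9, 21.8 and 28.3 CPM in cDC1. Hk3 was at 5.37, 3.69 and 2.65 CPM in cDC2 and under 1 CPM in migratory DC and B cells. cDC1 thus had more Hk3 than cDC2, and less Hk2 in the naive and YUMMER1.7 libraries, while the YUMM1.7 intervals of Hk2 overlapped. Gpi1, the isomerase of the next step, ranged from 72.1 to 334 CPM over the enriched classes, and the highest value was that of YUMMER1.7 neutrophils.

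The phosphofructokinase step, which commits sugar to glycolysis, separated the dendritic cell classes. Pfkfb3 makes fructose 2,6-bisphosphate, the strongest activator of phosphofructokinase. It was at 762, 573 and 514 CPM in migratory DC of the enriched fraction, and macrophages came next with 163, 148 and 136 CPM. The depleted fraction gave the same picture, with 683, 558 and 508 CPM in its migratory DC. In thinned cells, 71.5%, 63.1% and 57.1% of enriched migratory DC held a Pfkfb3 UMI, against 13%, 8.29% and 8.12% of B cells. Pfkfb3 was lower in YUMMER1.7 than in naive in 8 of the 9 enriched classes, with the interval below 0 in 7, and cDC1 was the exception at 68.5, 55.2 and 73.8 CPM. In cDC2 it was at 112, 87.8 and 66.9 CPM, a log2 ratio of -0.74 (-0.87 to -0.60) for YUMMER1.7. Only pDC differed the other way among depleted dendritic cells, at 22.0, 27.7 and 42.2 CPM, with a ratio of 0.94 (0.26 to 1.64) that was 0.36 in thinned cells. The 9 erythroid markers summed to 4730, 1.35 and 10.8 CPM in these pDC, so the naive library stood apart. With haemoglobin, mitochondrial, ribosomal and receptor genes left out of the scaling the ratio was 0.97.

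Pfkp, the platelet-type phosphofructokinase, was highest in cDC1 at 322, 273 and 293 CPM, and cDC2 had 187, 139 and 159 CPM, next in order except in YUMM1.7, where neutrophils had 141 CPM. It was low in migratory DC, where it was at 37.2, 46.4 and 56.2 CPM, so the class with the most Pfkfb3 had little Pfkp. The YUMMER1.7 ratio of Pfkp in migratory DC was 0.59 (0.44 to 0.75), and it was -0.05 in the largest of their 5 clusters. Pfkl, the liver-type enzyme, varied little, between 12.1 and 32.8 CPM over all enriched classes. Its highest value was in YUMMER1.7 macrophages, with a ratio over naive of 0.65 (0.32 to 0.99) that was -0.19 in thinned cells.

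**Figure D2:**
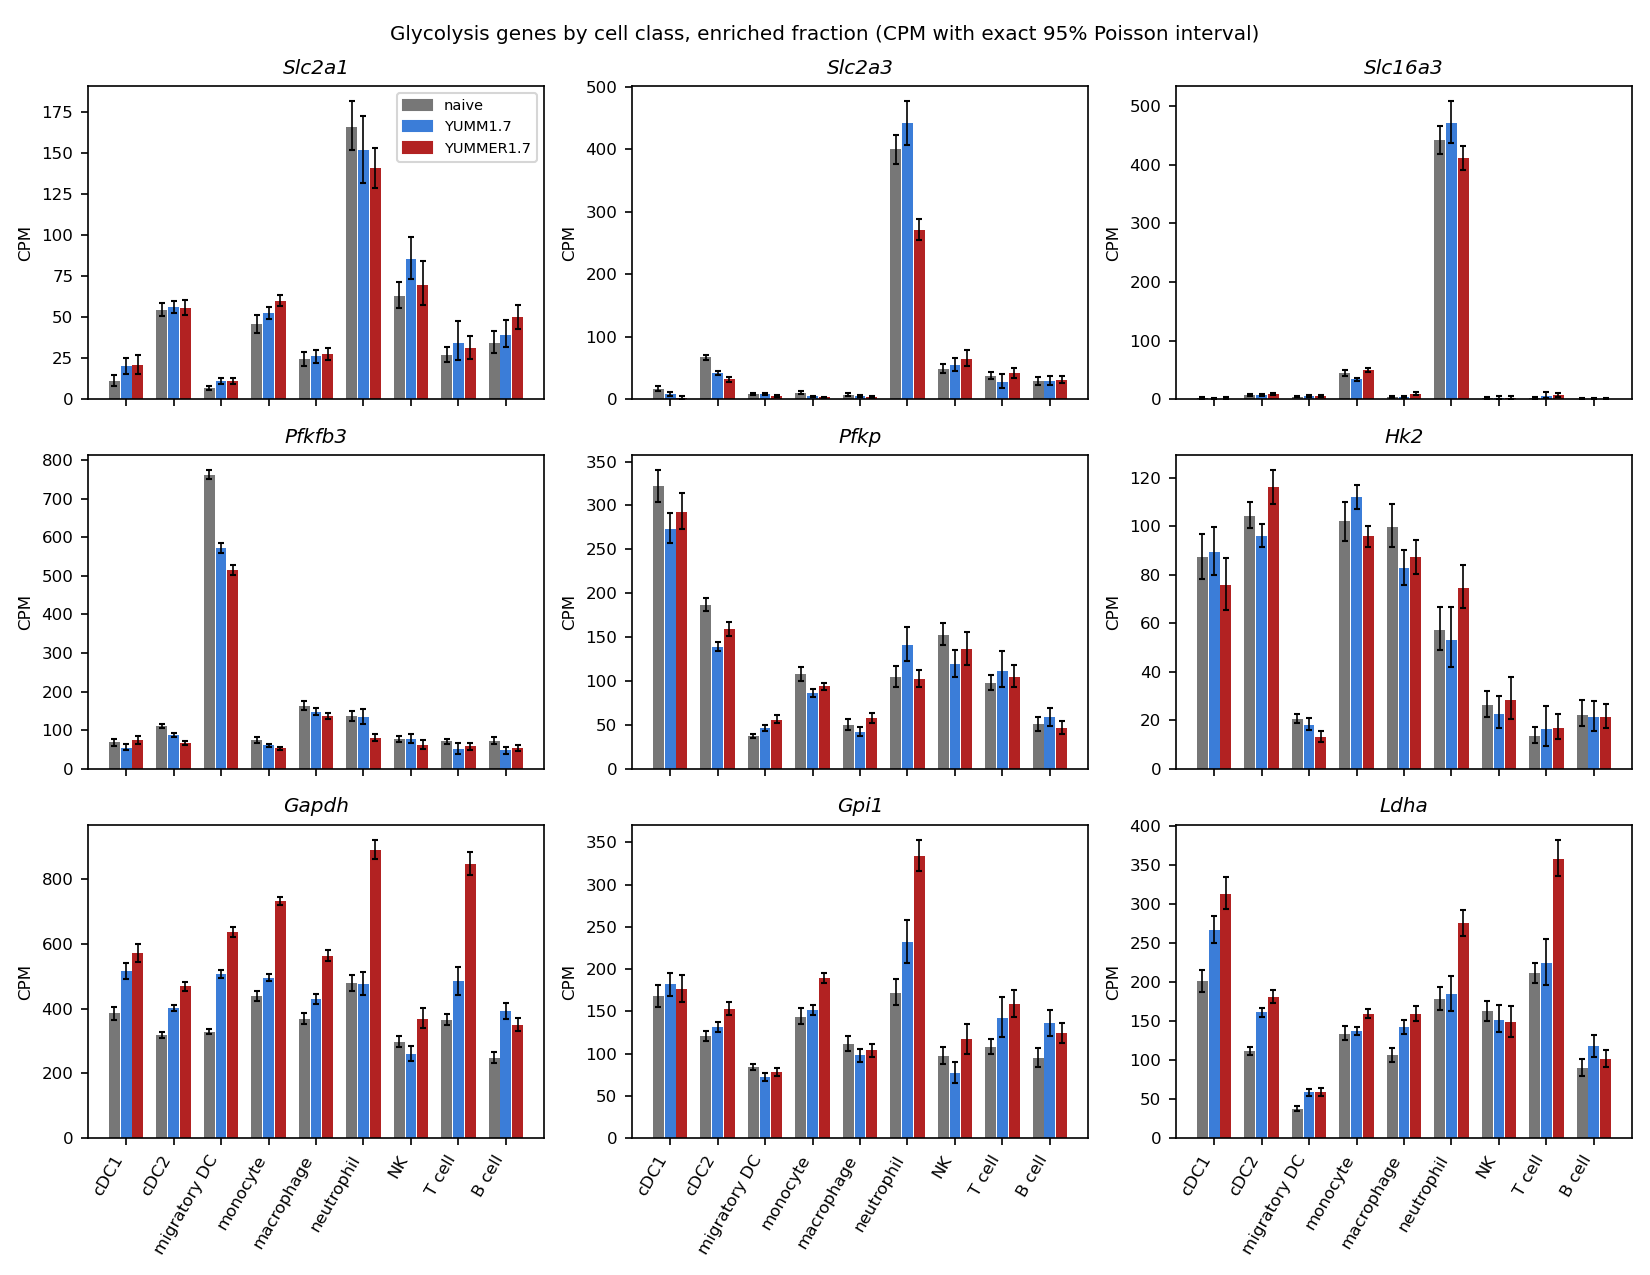
CPM of 9 glycolysis genes in the 9 enriched classes, with 1 bar per arm (naive, YUMM1.7, YUMMER1.7) and exact 95% Poisson intervals. Slc2a1, Slc2a3 and Slc16a3 peak in neutrophils, Pfkfb3 in migratory DC and Pfkp in cDC1, and the YUMMER1.7 bar of Gapdh is above the naive bar in every class.

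The enzymes from aldolase to pyruvate kinase were present in every class, and the YUMMER1.7 library was the higher one in nearly all of them. Gapdh was higher in YUMMER1.7 than in naive in 9 of 9 enriched and 6 of 6 depleted classes, and its interval was above 0 in all of these. Aldoa was also higher in 9 of 9 and 6 of 6, with intervals above 0 in 9 and 5. Tpi1 was higher in the same numbers of classes, with intervals above 0 in 8 and 4. Eno1 and Pkm were higher in 9 of 9 enriched classes each, with intervals above 0 in 6 each. Pgk1, Pgam1 and Ldha were higher in 8 of 9 enriched classes, and the exception in all 3 was NK cells. These classes share their naive and YUMMER1.7 libraries, so the counts are not independent of each other. Hypoxia genes that encode mitochondrial and secreted proteins did not all do this: Higd1a was higher in 9 of 9 and Bnip3l in 3 of 9.

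In enriched migratory DC, Gapdh had a larger YUMMER1.7 ratio over naive than the other enzymes from aldolase to lactate dehydrogenase. Gapdh was at 329, 505 and 636 CPM, a log2 ratio of 0.62 for YUMM1.7 and of 0.95 (0.90 to 1.0) for YUMMER1.7. The depleted fraction's migratory DC, from other libraries, had 369, 562 and 706 CPM, with ratios of 0.61 and 0.94 (0.83 to 1.04). Aldoa was at 99.5, 123 and 161 CPM and Eno1 at 15.3, 26.1 and 23.7 CPM in the depleted ones. Ldha was at 38.0, 58.8 and 59.2 CPM in the enriched cells, and Pgk1, Pgam1, Eno1 and Pkm each stayed within 1.5-fold of naive in both tumour arms. The median log2 ratio of the 18 glycolysis genes in enriched migratory DC was 0.08 in YUMM1.7 over naive and 0.16 in YUMMER1.7 over naive, against -0.06 for all genes in YUMMER1.7. In their largest cluster the medians were -0.15 and -0.01, so the direction turned there, and in the other 4 clusters the YUMMER1.7 median lay between 0.13 and 0.25.

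Ldha, which makes lactate, was among the leading differences in cDC1, cDC2 and macrophages. It was at 201, 267 and 313 CPM in cDC1, with a YUMMER1.7 ratio of 0.64 (0.50 to 0.78). In cDC2 it was at 112, 161 and 181 CPM, with a ratio of 0.70 (0.60 to 0.80), and in macrophages at 106, 142 and 159 CPM, with 0.58 (0.43 to 0.73). In these 3 classes the naive value was the lowest and the YUMMER1.7 value the highest, with intervals of the tumour ratios above 0. T cells had the most Ldha of all enriched classes in YUMMER1.7, at 358 CPM.

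Counts past a fixed size give the same classes side by side. A gene was counted where 1 library was at least 1.5-fold above the other and the higher one held at least 50 UMIs, and the share of all such genes that passed is given beside it. In cDC1, 4 of 16 glycolysis genes were that much higher in YUMMER1.7 than in naive, where 4.48% of all genes were, and 1 was lower, where 7.91% were. The 4 were Slc2a1, Hk3, Pgam1 and Ldha, and Slc2a3 was the lower one. In cDC2, 2 of 18 were higher (8.99% of all genes) and 3 lower (10.1%). In migratory DC, 4 of 17 were higher (7.15%) and 1 lower (10.4%). In monocytes, 3 of 18 were higher, namely Aldoa, Gapdh and Tpi1 (6.15%), and Slc2a3 alone was lower (7.38%). In macrophages, 3 of 17 were higher (4.05%) and none lower (4.98%). The pooled cDC2 shares were close to those of all genes. In the larger of the 2 cDC2 clusters, 5 of 17 were higher (9.65%) and 2 lower (9.45%), and in the other 1 of 18 was higher (7.52%) and 2 lower (11%). The counts in cDC1, cDC2 and migratory DC fell to 1, 0 and 1 in thinned cells, and fewer genes reached 50 UMIs there. The share of all genes was not counted in thinned cells.

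Monocytes gave median glycolysis log2 ratios over naive of 0.06 in YUMM1.7 and 0.32 in YUMMER1.7, where the median of the members' own bounds ran from 0.17 to 0.48 and the median of all genes was -0.05. Gapdh was at 439, 494 and 731 CPM and Aldoa at 111, 126 and 196 CPM, with YUMMER1.7 ratios of 0.74 (0.68 to 0.80) and 0.82 (0.70 to 0.93). Both stood higher in YUMMER1.7 than in YUMM1.7, by 0.57 and 0.63 on the log2 scale. The 2 monocyte clusters had YUMMER1.7 medians of 0.28 and 0.34. Mature neutrophil markers summed to 442, 469 and 755 CPM in monocytes and moved in the same direction, and their part was not tested. For cDC1 the glycolysis medians were 0.21 and 0.38, and for cDC2 they were 0.00 and 0.21, with YUMMER1.7 medians of 0.37 and 0.30 in the 2 cDC2 clusters. The makeup of cDC2 differed between arms. The cluster with 0.37 held 450 of 1169 naive, 819 of 1378 YUMM1.7 and 464 of 750 YUMMER1.7 cDC2. Its part in the pooled cDC2 ratios of single genes was not tested beyond the values given.

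Macrophages had a glycolysis median of 0.05 in YUMM1.7 and 0.28 in YUMMER1.7 (0.07 to 0.48), with Gapdh at 369, 429 and 562 CPM. Their depth differed between arms, with a median of 1512, 11938 and 16882 UMIs per cell, and 704 of the naive macrophages, 168 of the YUMM1.7 and 82 of the YUMMER1.7 ones fell into a shallow cluster. Without that cluster 5 glycolysis genes were at least 1.5-fold higher in YUMMER1.7 instead of 3, but the share of all genes was not counted there. The YUMMER1.7 median was 0.41 in the larger of the deep clusters with enough naive cells and 0.19 in the smaller.

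Neutrophils showed the widest difference among the myeloid classes in YUMMER1.7. Pgam1 was at 90.4, 107 and 195 CPM, Gpi1 at 172, 232 and 334 CPM, Gapdh at 478, 476 and 890 CPM and Aldoa at 179, 180 and 320 CPM. Their YUMMER1.7 ratios over naive were 1.11 (0.91 to 1.32), 0.95 (0.81 to 1.10), 0.90 (0.81 to 0.99) and 0.83 (0.69 to 0.98). The YUMM1.7 value of Gapdh and Aldoa lay within counting error of naive, and that of Gpi1 lay above it. The glycolysis median was 0.04 in YUMM1.7 and 0.52 in YUMMER1.7, and 7 of 18 genes were at least 1.5-fold higher in YUMMER1.7 (11.1% of all genes) and 1, Pfkfb3, lower (15.4%). The upper transporters did not follow: Slc2a3 went from 400 to 271 CPM.

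The makeup of the neutrophils differed too. A cluster of immature neutrophils held 147 of 773 naive, 49 of 416 YUMM1.7 and 203 of 645 YUMMER1.7 neutrophils, and the share of cycling cells was 1.68%, 1.20% and 5.89%. The mature cluster had a YUMMER1.7 median of 0.30, against 0.03 for all genes, and 3 of 18 genes were at least 1.5-fold higher (12.3% of all genes) and 2 lower (11.2%). These shares are close to those of all genes. In the immature cluster the median was 0.42, against -0.21 for all genes, with 6 of 17 genes higher (10.2%) and 1 lower (26.2%). Both medians were smaller than that of the pooled class.

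T cells and plasma cells had the widest class differences, and their share of cycling cells was highest in YUMMER1.7. In enriched T cells that share was lower in YUMM1.7, on 4 of 148 cells, than in naive, on 29 of 837 cells. In plasma cells it was close in both tumour arms. The part of cycling in the medians was not tested beyond the values given below. Enriched T cells had Tpi1 at 34.1, 57.5 and 93.3 CPM, Gapdh at 366, 485 and 846 CPM and Pgk1 at 87.9, 106 and 175 CPM, with YUMMER1.7 ratios of 1.45 (1.17 to 1.74), 1.21 (1.12 to 1.30) and 1.0 (0.81 to 1.19). Their glycolysis median was 0.26 in YUMM1.7 and 0.62 in YUMMER1.7, and 8 of 16 genes were at least 1.5-fold higher (9.33% of all genes) and none lower (13.9%). Cells that held at least 3 UMIs of the 15 proliferation genes, called cycling here, made up 3.46%, 2.70% and 15.2%. Cells were not thinned for this count, so more of them can pass it where depth is greater. Without cycling cells the YUMMER1.7 median was 0.21 with 1 gene past the size, but the share of all genes was not counted there. In the larger T cell cluster the median was 0.14 with 0 of 15 genes higher (2.28% of all genes) and none lower (14.8%). In the smaller T cell cluster the median was 0.82, with 8 of 14 genes higher (13.6%) and none lower (20.5%). That cluster held 214, 64 and 91 cells, and the whole class held 29, 4 and 44 cycling cells. Most of its naive and YUMM1.7 cells were therefore not cycling by this count.

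In the depleted fraction the same held for T cells more strongly. Gapdh was at 608, 760 and 1690 CPM, Tpi1 at 68.3, 92.2 and 205 CPM and Eno1 at 118, 177 and 320 CPM. The YUMMER1.7 median was 1.03, and 10 of 17 genes were at least 1.5-fold higher (15.5% of all genes) and 1 lower (25.1%). The cycling share was 8.84%, 11.2% and 48.2%, and 132 of the 280 YUMMER1.7 T cells lay in 1 cycling cluster. Without cycling cells the median was 0.09 and no glycolysis gene was at least 1.5-fold higher, but the share of all genes was not counted there. With each library clustered on its own it was -0.07. The ratio of Tpi1 turned from 1.59 to -0.20 without cycling cells.

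Plasma cells of the depleted fraction had Eno1 at 59.2, 121 and 159 CPM, Ldha at 113, 176 and 245 CPM and Gapdh at 557, 903 and 1120 CPM. Both tumour libraries lay above naive, with Eno1 ratios of 1.03 (0.84 to 1.22) and 1.42 (1.24 to 1.62). The glycolysis median was 0.38 in YUMM1.7 and 0.67 in YUMMER1.7, and 9 of 15 genes were at least 1.5-fold higher in YUMMER1.7 (15.4% of all genes) and none lower (5.57%). The cycling share was 40.2%, 66.8% and 68.5%. Without cycling cells the medians were 0.05 and 0.19, with 1 gene past the size, but the share of all genes was not counted there. In the larger plasma cell cluster the medians were 0.13 and 0.39, and in the other 0.13 and 0.24.

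B cells differed less. Enriched B cells had Gapdh at 249, 392 and 350 CPM, Pgam1 at 45.5, 74.8 and 57.7 CPM, Pgk1 at 48.4, 74.4 and 58.6 CPM and Tpi1 at 24.0, 37.6 and 38.9 CPM. Here the YUMM1.7 library was the highest for Gapdh, Pgam1 and Pgk1, and 4 of 16 glycolysis genes were at least 1.5-fold higher in YUMM1.7 than in naive (2.61% of all genes) and 1, Pfkfb3 at 72.7, 48.0 and 54.4 CPM, lower (6.53%). The median was 0.32 in YUMM1.7 and 0.20 in YUMMER1.7. Depleted B cells had medians of 0.06 and 0.27, and these were -0.30 and -0.09 in their largest cluster, so that class gave no direction that held across its clusters. Of the naive cells, 3487 of 4343 lay in another cluster, and of the YUMMER1.7 cells 1745 of 1960 lay in the largest one. Erythroid markers summed to 896, 9.70 and 17.4 CPM in depleted B cells, and their part was not tested. Among their members, Hk2 was at 6.16, 9.85 and 10.7 CPM and Ndrg1 at 5.51, 10 and 7.65 CPM, so the naive value was the lowest of both. Of 17 measured glycolysis genes in enriched NK cells, 10 were higher in YUMMER1.7 than in naive and 7 lower, a count given without the share of all genes. Tpi1 and Gpi1 were higher in YUMMER1.7 than in YUMM1.7 NK cells, by 0.69 (0.29 to 1.09) and 0.59 (0.28 to 0.91) on the log2 scale.

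**Figure D3:**
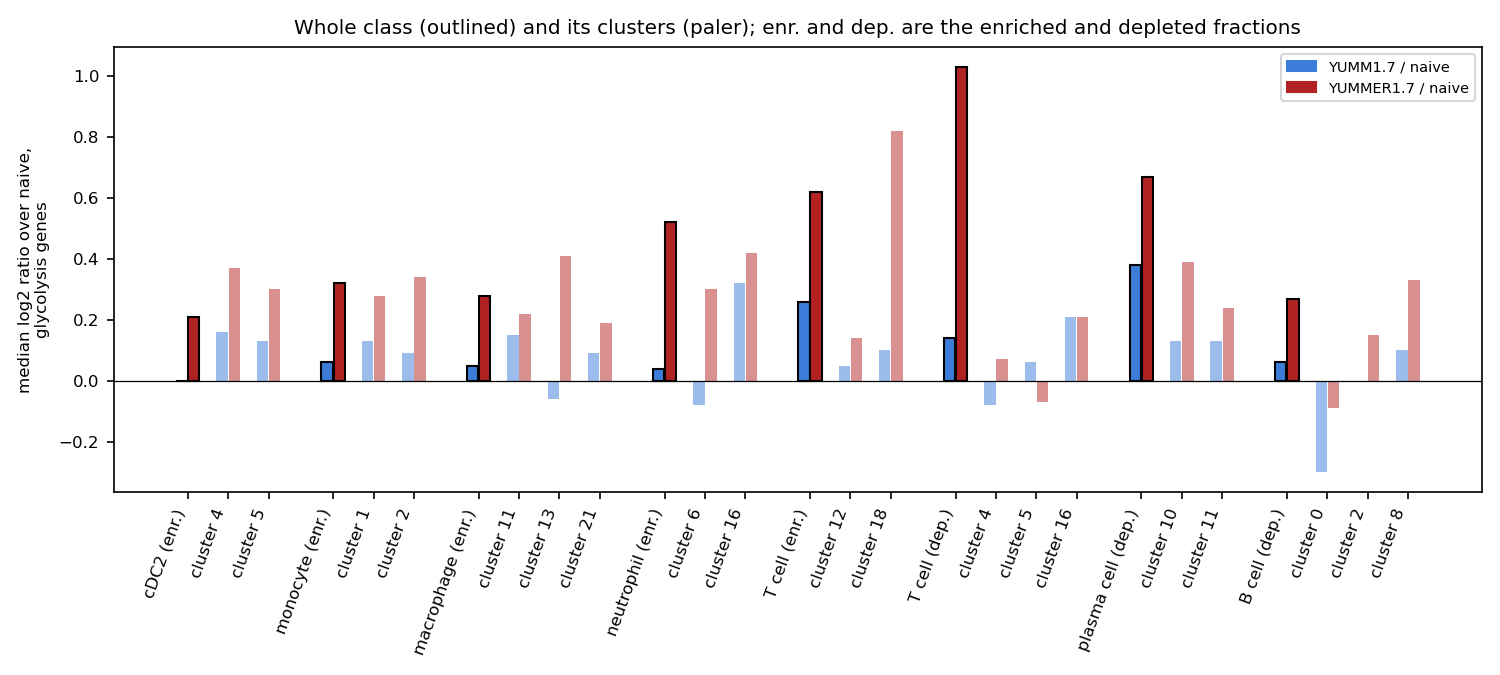
Median log2 ratio over naive of the glycolysis genes in 8 whole classes (outlined bars) and in each of their clusters (paler bars), for YUMM1.7 and YUMMER1.7. The depleted T cell class stands at 1.03 in YUMMER1.7 while its 3 clusters stand at 0.07, -0.07 and 0.21.

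The hypoxia genes had small medians in most classes. Their median log2 ratio for YUMMER1.7 over naive was 0.18 in cDC1, 0.09 in cDC2, 0.18 in migratory DC, 0.24 in monocytes, -0.02 in macrophages, 0.23 in neutrophils, 0.41 in enriched T cells and 0.01 in enriched B cells. For YUMM1.7 the medians were 0.24, -0.09, 0.25, -0.09, -0.12, -0.23, 0.09 and -0.07 in the same order. The YUMM1.7 median of cDC1 turned to -0.32 with separate clustering of each library, and that of migratory DC to -0.21 in their largest cluster. Many hypoxia genes were sparse: of the 14, only 9 had 10 UMIs in cDC1, 13 in cDC2, 14 in migratory DC, 12 in monocytes and in macrophages and 11 in neutrophils. At least 1.5-fold higher in YUMMER1.7 were 1 of 8 in cDC1, 3 of 10 in cDC2, 1 of 10 in migratory DC, 2 of 12 in monocytes, 0 of 10 in macrophages and 2 of 10 in neutrophils. At least 1.5-fold lower were 1 each in macrophages and neutrophils and none in the other 4, beside the shares of all genes given above for these classes.

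Hif1a encodes the alpha subunit found in most cells. Among enriched classes it was lowest in cDC1, at 71.3, 63.6 and 73.4 CPM, and it reached 149 to 160 CPM in monocytes, macrophages and neutrophils apart from YUMM1.7 macrophages at 124 CPM. Enriched T cells had 140, 223 and 206 CPM. Hif1a was lower in tumour arms in enriched B cells, at 119, 92.9 and 76.9 CPM, with a YUMMER1.7 ratio of -0.62 (-0.85 to -0.40), but depleted B cells had 70.7, 69.9 and 67.5 CPM. The depleted YUMMER1.7 ratio was -0.07 (-0.21 to 0.07).

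Epas1, which encodes HIF-2α, was a gene of the stromal classes. Blood endothelial cells had 421 CPM in YUMM1.7 and 478 CPM in YUMMER1.7, fibroblastic cells 250 and 374 CPM, and lymphatic endothelial cells 132 and 134 CPM. The fibroblastic ratio of YUMMER1.7 over YUMM1.7 was 0.58 (0.48 to 0.68), while that of lymphatic endothelial cells was 0.02 (-0.14 to 0.19). Outside the stroma, NK cells had the most, at 25.9, 10.6 and 12.2 CPM in the enriched and 13.4, 59.5 and 18.8 CPM in the depleted fraction, so the naive value was the highest in one fraction and the lowest in the other. Myeloid classes and B cells of the enriched fraction held at most 4.32 CPM. In depleted B cells Epas1 was at 0.519, 2.15 and 6.55 CPM, a ratio of 3.66 (2.59 to 4.93) for YUMMER1.7. The fibroblastic markers summed to 6.75, 235 and 427 CPM in those B cells and moved in the same order, and their part was not tested.

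The oxygen sensors differed from each other in where they were found. Egln1 was present in every class, from 14.0 to 63.8 CPM in the enriched fraction. Egln3, a strongly induced HIF target, was at 22.1, 23.1 and 27.5 CPM in neutrophils and at 8.52, 15.3 and 13.4 CPM in T cells, and stayed under 7 CPM in the other enriched classes. Fibroblastic cells had 10.9 CPM in YUMM1.7 and 18.8 CPM in YUMMER1.7, a ratio of 0.79 (0.32 to 1.28) that was -0.10 without cycling cells. In neutrophils the intervals of the Egln3 ratios held 0, and Egln1, at 17.7, 14.0 and 24.7 CPM, was higher in YUMMER1.7 than in YUMM1.7 by 0.82 (0.11 to 1.59) on the log2 scale.

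Ndrg1, a stress-responsive HIF target linked to differentiation, differed between arms in cDC2 and migratory DC. It was at 98.7, 138 and 206 CPM in cDC2, with ratios over naive of 0.48 (0.38 to 0.58) in YUMM1.7 and 1.06 (0.96 to 1.16) in YUMMER1.7. In migratory DC it was at 102, 137 and 158 CPM, with ratios of 0.42 and 0.62. The 3 libraries stood in the same order in both classes without overlap of intervals, and in monocytes only YUMMER1.7 stood out, at 33.4, 32.4 and 48.8 CPM. Neutrophils differed the other way, at 68.3, 59.5 and 35.1 CPM, with a YUMMER1.7 ratio of -0.96 (-1.28 to -0.64). In cDC1, at 27.9, 32.9 and 27.2 CPM, the YUMMER1.7 ratio was -0.04 (-0.49 to 0.40). Blood endothelial cells held the highest levels of the depleted classes, with 230 and 234 CPM in the tumour arms. In depleted T cells Ndrg1 was at 11.7, 33.0 and 43.5 CPM, a ratio of 1.89 (1.61 to 2.17) in YUMMER1.7 that was 0.69 without cycling cells.

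Adm encodes adrenomedullin, a secreted vasodilator peptide. Among enriched classes it was found in migratory DC at 34.1, 40.8 and 27.1 CPM and in macrophages at 16.5, 7.17 and 7.99 CPM, and lay at or under 3.84 CPM elsewhere. The macrophage ratios over naive were -1.21 (-1.75 to -0.68) in YUMM1.7 and -1.05 (-1.56 to -0.55) in YUMMER1.7. Migratory DC of the depleted fraction had 43.7, 20.5 and 29.2 CPM, where YUMM1.7 was the lowest arm, whereas it was the highest in the enriched fraction. Lymphatic endothelial cells had the most Adm of the depleted classes, at 88.2 and 65.8 CPM in the tumour arms. Mif, a secreted cytokine with many sources, was at 65.9, 89.0 and 104 CPM in cDC2, with a YUMMER1.7 ratio of 0.66 (0.53 to 0.79), and was at 191, 175 and 186 CPM in macrophages.

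The collagen prolyl 4-hydroxylase genes P4ha1 and P4ha2 let collagen fold and are HIF targets. P4ha2 was confined to a few classes of those measured: fibroblastic cells had 48.2 and 40.0 CPM, lymphatic endothelial cells 23.5 and 25.6 CPM and blood endothelial cells 13 and 13.7 CPM, while the enriched classes held at most 2.88 CPM. That highest enriched value was in YUMMER1.7 migratory DC, which had 0.445, 1.73 and 2.88 CPM, a log2 ratio over naive of 2.69 (1.63 to 3.88) on few UMIs. P4ha1 was also a gene of leukocytes, at 92.8, 109 and 94.2 CPM in macrophages and 67.5, 65.6 and 67.9 CPM in monocytes. In neutrophils it was at 20.8, 17.5 and 41.4 CPM, a YUMMER1.7 ratio of 1.0 (0.57 to 1.44).

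Pdk1 encodes a pyruvate dehydrogenase kinase, which restrains the use of pyruvate inside mitochondria. It was highest in T cells among enriched classes, at 92.0, 68.0 and 61.6 CPM, and T cells of the depleted fraction had 84.8, 89.8 and 29.7 CPM. The depleted YUMMER1.7 ratio was -1.51 (-1.77 to -1.27), the opposite direction to the glycolysis enzymes in the same cells, of which 48.2% were cycling. Its ratio to YUMM1.7 there was -1.60, and -0.53 without cycling cells. B cells of the depleted fraction had 33.5, 31.9 and 31.3 CPM, a level under that of T cells there except in YUMMER1.7. Myeloid and dendritic classes held at most 20.1 CPM.

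Bnip3 and Bnip3l encode receptors that mark mitochondria for removal. Bnip3 was at 28.8, 21.5 and 19.6 CPM in macrophages and 29.1, 30.1 and 34.1 CPM in neutrophils and under 14 CPM in the other enriched classes. In monocytes it was at 7.54, 10.9 and 13.5 CPM, with a YUMMER1.7 ratio of 0.85 (0.40 to 1.31), and in macrophages the ratio was -0.55 (-0.89 to -0.21). Bnip3l was found in every class, between 40.2 and 127 CPM in the enriched fraction, with 124, 106 and 127 CPM in neutrophils and 119, 110 and 103 CPM in NK cells. These were the 2 highest enriched classes in the naive and YUMM1.7 libraries, while in YUMMER1.7 monocytes, at 109 CPM, lay above NK cells. Higd1a, a small mitochondrial protein induced by hypoxia, was at 65.1, 83.7 and 99.8 CPM in cDC1, a YUMMER1.7 ratio of 0.62 (0.36 to 0.87), and was highest among enriched classes in NK cells, at 110, 118 and 151 CPM. Ankrd37, a small HIF target, was low, at 5.15, 3.87 and 8.96 CPM in cDC2 and 7.85, 5.95 and 11.8 CPM in monocytes. Its YUMMER1.7 value lay above its YUMM1.7 value in both, by 1.21 (0.73 to 1.7) and 0.98 (0.64 to 1.33) on the log2 scale.

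**Figure D4:**
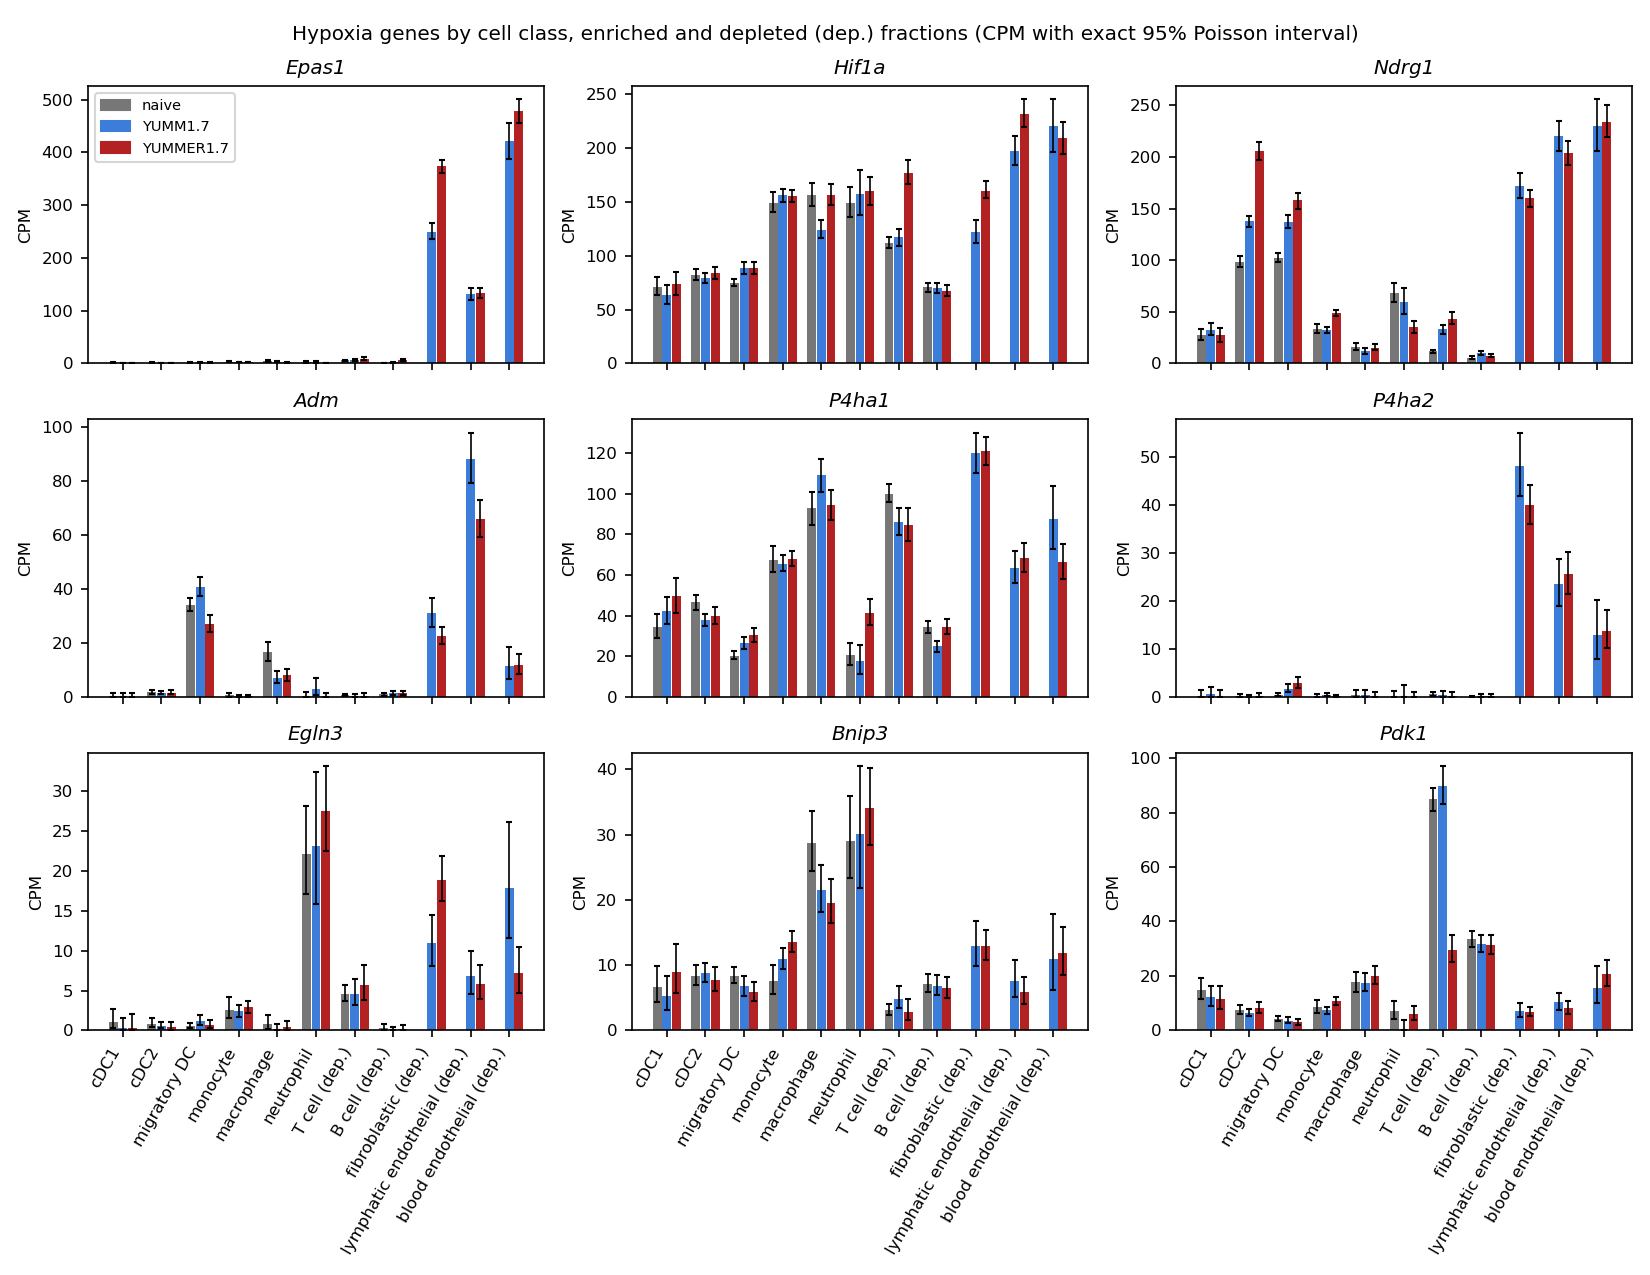
CPM of 9 hypoxia genes in 6 enriched classes and 5 depleted classes (dep.), with 1 bar per arm (naive, YUMM1.7, YUMMER1.7) and exact 95% Poisson intervals; stromal classes have no naive bar because they had under 30 naive cells. Among the depleted classes Epas1 and P4ha2 peak in the stromal ones, and among the enriched classes Egln3 and Bnip3 peak in neutrophils. The Pdk1 bar of depleted T cells is lowest in YUMMER1.7, and Ndrg1 climbs from naive to YUMMER1.7 in cDC2.

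Fibroblastic cells, which build the node's scaffold, were 276 in YUMM1.7 and 432 in YUMMER1.7, and their 13 markers summed to 33700 and 33500 CPM. Their glycolysis median for YUMMER1.7 over YUMM1.7 was 0.37 (0.18 to 0.52), against -0.06 for all genes. Hk2 was at 57.7 and 91.3 CPM, a ratio of 0.66 (0.46 to 0.87), and Hk1 at 35.2 and 22.0 CPM, a ratio of -0.68 (-0.98 to -0.37), so the 2 hexokinases differed in opposite directions. Of 16 glycolysis genes, 1 was at least 1.5-fold higher (3.80% of all genes) and 1 lower (6.54%). Of 17 measured genes, 14 were higher in YUMMER1.7 by any amount, where the median of all genes was -0.06. The share of all genes higher by any amount is not given here. Lymphatic endothelial cells had 2 of 16 higher (3.23%) and none lower (3.06%), with Hk2 at 11.3 and 21.7 CPM, a ratio of 0.95 (0.45 to 1.47) that was -1.13 in their largest cluster and 0.27 without cycling cells. Blood endothelial cells had 2 of 15 higher (5.24%) and none lower (4.96%), with Eno1 at 69.8 and 107 CPM, and hardly any Hk2, at 0.684 and 1.37 CPM. The cycling share was 23.6% and 30.6% in fibroblastic cells and 16.8% and 32.3% in lymphatic endothelial cells, and its part was not tested beyond the values given.

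Other genes of the same metabolism were read from lists set beside the members. The counts use genes with at least 50 UMIs, and the shares of all genes are those given above for each class. Of the 17 genes of the tricarboxylic acid cycle, which burns pyruvate in mitochondria, 5 of 17 were at least 1.5-fold higher in YUMMER1.7 cDC2 (8.99% of all genes) and none lower (10.1%), with Fh1 (fumarate hydratase) at 45.3, 73.1 and 82.5 CPM and Mdh2 (malate dehydrogenase) at 90.6, 122 and 152 CPM. Of 17 in each class, 2 were higher and 1 lower in cDC1, 1 and 0 in monocytes and in macrophages, 0 and 0 in migratory DC and 5 and 0 in enriched T cells (9.33% and 13.9% of all genes). In neutrophils, 1 of 13 was higher and none lower. Of 7 pentose phosphate genes, which make NADPH and ribose from glucose, all had 50 UMIs in neutrophils, where 2 were higher in YUMMER1.7 (11.1% of all genes) and none lower (15.4%), with Tkt (transketolase) at 196, 206 and 395 CPM. Taldo1 (transaldolase) was at 635, 824 and 988 CPM in cDC1, 278, 469 and 583 CPM in cDC2 and 471, 586 and 746 CPM in monocytes. A list of 12 genes covered pyruvate dehydrogenase and the entry of pyruvate into mitochondria. Of these, 1 of 10 was higher in cDC2 (8.99% of all genes), in monocytes (6.15%) and in macrophages (4.05%), and 1 of 6 in neutrophils (11.1%), with none lower. It was Pdk3, a pyruvate dehydrogenase kinase, in each, at 76.5, 138 and 158 CPM in monocytes. Migratory DC had 2 of 10 lower (10.4%) and none higher (7.15%), with Pdk3 at 124, 72.9 and 59.0 CPM.

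The 28 further glycolysis genes, mostly tissue-restricted isoforms, and the 30 further hypoxia targets were counted in the same way. Among the former, 0 of 11 with 50 UMIs were at least 1.5-fold higher in YUMMER1.7 cDC2 (8.99% of all genes) and none lower (10.1%). In monocytes 2 of 13 were higher (6.15%) and 3 lower (7.38%), among them Slc16a7, a monocarboxylate transporter, at 49.2, 44.8 and 26.2 CPM. In neutrophils 2 of 6 were higher (11.1%) and none lower (15.4%). Gpd2, a shuttle enzyme that passes glycolytic electrons to mitochondria, was at 490, 296 and 226 CPM in cDC1 and at 64.6, 108 and 150 CPM in migratory DC, opposite directions in 2 dendritic classes. Among the latter, 5 of 12 were at least 1.5-fold lower in YUMMER1.7 cDC1 (7.91% of all genes) and none higher (4.48%). The higher and lower counts were 1 and 2 of 19 in cDC2, 2 and 2 of 20 in migratory DC, 0 and 2 of 18 in monocytes, 2 and 0 of 19 in macrophages and 1 and 1 of 15 in neutrophils. Cxcr4, a homing receptor and HIF target, was lower in the tumour arms in cDC1, at 41.4, 25.9 and 17.1 CPM, in migratory DC, at 124, 81.6 and 66.6 CPM, and in enriched B cells, at 348, 167 and 157 CPM. Angptl4, a secreted regulator of lipid uptake, was at 7.71, 33.8 and 32.4 CPM in macrophages, and fibroblastic cells had 49.1 CPM in YUMM1.7 and 160 CPM in YUMMER1.7. Hilpda, a lipid droplet protein induced by hypoxia, was at 28.8, 21.7 and 66.1 CPM in neutrophils. Vegfa, the vascular growth factor, was at 4.81, 11.1 and 9.37 CPM in migratory DC.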

How the data were processed

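Single-cell 3′ libraries (Chromium GEM-X) gave UMI counts per gene and cell, which the authors deposited as filtered count matrices made with Cell Ranger (8.0.1 per the submitters' processing notes; per the file headers 8.0.1 for the enriched and 7.0.0 for the depleted fraction, whose gene lists also differ). The fractions were therefore never compared by test or ratio. Cells with at least 500 UMIs, 300 genes and at most 10% mitochondrial UMIs were kept. Scrublet's own threshold marked 0 depleted cells and had not worked there, so cells above the 95th percentile of its score were removed in every library (4.53 to 4.92%). Scanpy 1.11.5 clustered each fraction (2000 variable genes without the members, 30 components, 15 neighbours, Leiden resolution 1). Clusters were named from fixed markers, and clusters that met no rule stayed unnamed: clusters 1 and 6 of the depleted fraction are in the tables but not described here. Counts were summed per class and library, and levels, Poisson intervals and conditional binomial intervals of ratios followed. These calculations were checked on simulated data. Medians use members with at least 10 UMIs, size counts at least 50. Total UMIs were 86471908, 78305030 and 78551522 in the enriched and 78240566, 76861915 and 67709285 in the depleted libraries (naive, YUMM1.7, YUMMER1.7). Named with values are, per class, up to 6 members at least 1.5-fold apart with an interval that leaves out 0, ordered by the bound nearest 0, and each member's extreme classes; further members were chosen by role after their values were seen. The members and lists were chosen with earlier results of these data known. In depleted B cells and migratory DC, listed copies of Gapdh, Pgk1, Pgam1 and Ldha held at most 1 UMI, and in the same classes of both fractions Eno1b added 4.44% at most to Eno1. Reads lost because they match a gene and a copy equally were not measured.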

Additional observations from a re-analysis of the deposited data

How the results depend on the processing

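Alternatives changed the cell filter, doublets, scaling, depth, clustering, cells used and UMI minimum, and 4 that leave out 1 cluster were chosen after seeing the data. Of 284 alternative glycolysis medians 260 stayed within the members' bounds, as did 281 of 284 hypoxia medians, and 812 of 1004 single ratios stayed within their counting interval. The settings differed widely for single ratios. The stricter cell filter left all 90 within their interval. Thinning moved 39 out of it, changed the sign of 5 and left 46 within. The largest cluster alone moved 34, changed the sign of 3 and left 51 within.
Without cycling cells the glycolysis median over naive was 0.21 (main 0.62) in enriched YUMMER1.7 T cells, 0.09 (1.03) and -0.07 (0.14) in depleted YUMMER1.7 and YUMM1.7 T cells and 0.19 (0.67) and 0.05 (0.38) in plasma cells. Without the smaller cluster it was 0.14 in enriched T cells, and without the cycling cluster it was 0.11 and -0.05 in depleted T cells. In the largest cluster alone it was 0.14 in enriched T cells, 0.07 and -0.08 in depleted T cells, 0.39 and 0.13 in plasma cells, -0.09 (0.27) and -0.30 (0.06) in depleted B cells, 0.30 (0.52) in YUMMER1.7 neutrophils, also without their immature cluster, and -0.15 (0.08) in YUMM1.7 migratory DC, whose hypoxia median was -0.21 (0.25). Leiden resolution 0.5 gave 0.09 and -0.06 in depleted T cells. Thinned cells gave 0.28 in enriched YUMMER1.7 T cells and 0.61 in YUMM1.7 plasma cells. With each library clustered on its own, the glycolysis median was -0.07 in depleted YUMMER1.7 T cells and 0.49 (0.32) in YUMMER1.7 monocytes, and hypoxia medians were -0.32 (0.24) in YUMM1.7 cDC1 and -0.26 (-0.02) in YUMMER1.7 macrophages.
Counts of glycolysis genes at least 1.5-fold higher in YUMMER1.7 moved by over 1.5 times in 26 of 112 alternatives. The share of all genes was not counted under these alternatives, apart from the single clusters given above. In cDC1 (main 4) they were 1 thinned, 1 with own clustering and 2 with the higher UMI minimum. In cDC2 (2) they were 0 thinned, 4 with own clustering and 5 in the largest cluster. In migratory DC (4) they were 1 with doublets kept, 1 thinned and 1 in the largest cluster. In macrophages (3) they were 1 at resolution 0.5, 5 with own clustering and 5 without the shallow cluster. In neutrophils (7) they were 3 in the largest cluster and 3 without the immature one. In enriched T cells (8) they were 5 thinned, 4 by the mean over cells, 0 in the largest cluster, 1 without cycling cells and 0 without the smaller cluster. In plasma cells (9) they were 5 in the largest cluster and 1 without cycling cells. In depleted T cells (10) they were 0 at resolution 0.5, with own clustering, without cycling cells and without the cycling cluster, and 1 in the largest cluster. Counts of lower glycolysis genes and of higher and lower hypoxia genes moved in 24, 29 and 19 of 112.
The YUMMER1.7 ratio changed sign for Slc2a1 in cDC1 (-0.67 thinned, -0.18 own clustering), Pfkp in migratory DC (-0.05, largest cluster), Pfkl in macrophages (-0.19 thinned) and Pgk1 in depleted migratory DC (-0.08 thinned). In depleted T cells, Tpi1 was -0.20 at resolution 0.5, without cycling cells and without their cluster, -0.03 in the largest cluster and -1.39 with own clustering, where Gapdh was -0.41, Eno1 -0.07 and Pgk1 -0.28. Egln1 in YUMM1.7 pDC was -0.39 thinned. For YUMMER1.7 over YUMM1.7, Egln3 was -0.10 in fibroblastic cells without cycling cells, and in lymphatic endothelial cells Hk2 was -1.13 (largest cluster) and Slc16a3 -1.09 (thinned). Except where fewer cells or UMIs enter by construction, the cause was not tested.
No paired analysis was possible because each arm has 1 library per fraction. Depth limited the ratios of sparse genes: Adm, P4ha2, Egln3 and Epas1 held under 50 UMIs in most leukocyte classes.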
